A study of Manihot esculenta with 9 samples.

Results

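The raffinose and stachyose synthases of cassava (*Manihot esculenta*) were described in mature leaves by RNA-seq. Members were all genes whose description in the deposited table contains raffinose synthase (5 genes), stachyose synthase (1 gene) or seed imbibition (5 genes), which gave 11 of the 33033 genes of the table. All plants were wild-type TM60444 seedlings aged 60 days, raised from stem segments in MS medium in sterile bottles. The 3 MS control libraries came from seedlings left in MS medium. For the 3 ABA libraries abscisic acid was added to 50 μmol/L, for the 3 PEG libraries PEG6000 was added to 7%, and leaves were taken 48 h later. The study states biological replicates, but the sources used here do not say whether each library came from its own plant, so p-values measure the spread between libraries, which may be technical. Seedlings in sterile bottles with an osmotic agent are a limited model of plants in drying soil.

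Raffinose and stachyose are soluble sugars built by adding galactose units to sucrose. Galactinol synthase first makes galactinol from myo-inositol and UDP-galactose. Raffinose synthase then moves the galactose of galactinol to sucrose, and stachyose synthase adds a further galactose to raffinose. Alpha-galactosidases take these units off again. Such sugars accumulate in seeds and in leaves that lose water, where they are known as protectants, and several plants also carry them in the phloem. The enzymes belong to 1 protein family, so the words raffinose synthase in a description do not by themselves show that the protein makes raffinose. The cassava genes are therefore ordered by their nearest Arabidopsis gene in the deposited table. In Arabidopsis, RS5 is a raffinose synthase of stressed leaves, STS a stachyose synthase of seeds, and DIN10 a family member named for its induction in darkness. SIP1 and SIP2 are named for seed imbibition, and Arabidopsis SIP2 is an alkaline alpha-galactosidase that breaks raffinose down.

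The genes are spread over 7 chromosomes. Positions are those of the deposited table, whose gene IDs are of cassava genome release v6.1. Those nearest to RS5 are Manes.17G115500 on chromosome 17 from 25647268 to 25650890, Manes.06G108300 on chromosome 6 from 21784335 to 21790487 and Manes.14G062500 on chromosome 14 from 5110133 to 5112742. The gene nearest to STS is Manes.01G229800, on chromosome 1 from 31370001 to 31373644. Those nearest to DIN10 are Manes.01G175500 on chromosome 1 from 27749042 to 27752759 and Manes.06G047200 on chromosome 6 from 13792570 to 13795670. The gene nearest to SIP1 is Manes.05G206000, on chromosome 5 from 28108996 to 28112978. The 4 genes nearest to SIP2 are Manes.08G049600 on chromosome 8 from 4760135 to 4766640, Manes.09G024300 on chromosome 9 from 3591518 to 3598213, Manes.09G072200 on chromosome 9 from 10026268 to 10031460 and Manes.14G057700 on chromosome 14 from 4479872 to 4484201. No members lie side by side. The closest pair on a chromosome, Manes.14G057700 and Manes.14G062500, is 625931 bases apart.

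Levels are the authors' FPKM, a read count per transcript length and library size, and means are given ± SD over the 3 libraries of a group. Changes are log2 fold changes of the read counts, with standard errors (SE) and Benjamini-Hochberg adjusted p-values from edgeR over 23984 genes. The words rose and fell are used where the adjusted p was under 0.05. Total counts were 13923803 to 17108746 per library. FPKM does not carry the TMM scaling of the test. Without that scaling the log2 fold change of the median gene shifted from 0.005 to 0.14 between PEG and the MS control. Between PEG and ABA it shifted from 0.046 to 0.24. FPKM ratios with PEG therefore lie somewhat above the tested changes. Of the members, 10 passed edgeR's filter on low counts. Manes.14G062500 did not.

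Markers of tissue and treatment were read first. The 23 genes found by mature leaf terms, mostly light-harvesting proteins, all had reads. They summed to 1132 to 1162 FPKM in the MS control, 607 to 615 FPKM after ABA and 3216 to 3402 FPKM after PEG. Of the 22 tested 20 fell after ABA and 20 rose after PEG. The 3 genes for Rubisco small subunits were counted apart. Their sum was 3666.7 to 4205.1 FPKM in the MS control, 886 to 992.1 FPKM after ABA and 7773.2 to 8285.5 FPKM after PEG. Among these 3, 0 rose and 2 fell after ABA, and 2 rose and 1 fell after PEG. All 12 A and B cyclins, which drive cell division, rose in both comparisons, from 4.79 to 5.49 FPKM in sum to 35.8 to 36.3 FPKM after ABA and 49.5 to 51.9 FPKM after PEG. Of 14 genes for clade A protein phosphatases, a gene group that ABA is known to raise, 12 rose and 1 fell after ABA, while 2 rose and 10 fell after PEG. Of 48 LEA and dehydrin genes tested, 17 rose and 16 fell after ABA, and 8 rose and 33 fell after PEG. All 82 genes of this list summed to 1461.2 to 1862.2 FPKM in the MS control, 2281.1 to 2350.7 FPKM after ABA and 1087.5 to 1093 FPKM after PEG. Among all genes tested 32.9% rose and 33.4% fell after ABA, and 35.6% rose and 35.1% fell after PEG. The part of these shifts in the results for the members was not tested. In whole leaves, fewer cells that express a gene and less RNA per cell cannot be told apart. All directions are those of the library labels. Had the MS control and PEG labels been exchanged, which was not tested, each change after PEG would turn its sign, and each change after ABA would become the PEG minus ABA value with its sign turned.

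The summed level of the family was lowest after PEG. The genes nearest to SIP2 made up 68.7% ± 0.217 of the summed FPKM in the MS control, 72.8% ± 0.578 after ABA and 48.2% ± 0.417 after PEG. The 11 genes summed to 722.5, 718 and 698.2 FPKM in the MS control libraries. After ABA the sums were 1139, 1132 and 1139 FPKM, and after PEG they were 242.7, 242.8 and 243.9 FPKM. The groups did not overlap, and the means were 1.59 times the MS control after ABA and 2.93-fold lower after PEG. Manes.08G049600 alone made up 55.1% ± 0.273 of the sum in the MS control, 58.3% ± 0.506 after ABA and 21.4% ± 0.114 after PEG. Without this gene the sum was 320.4 ± 3.91 FPKM in the MS control, 474 ± 7.39 FPKM after ABA and 191 ± 0.561 FPKM after PEG. The sum after PEG was then 1.68-fold lower than in the MS control.

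**Figure D1:**
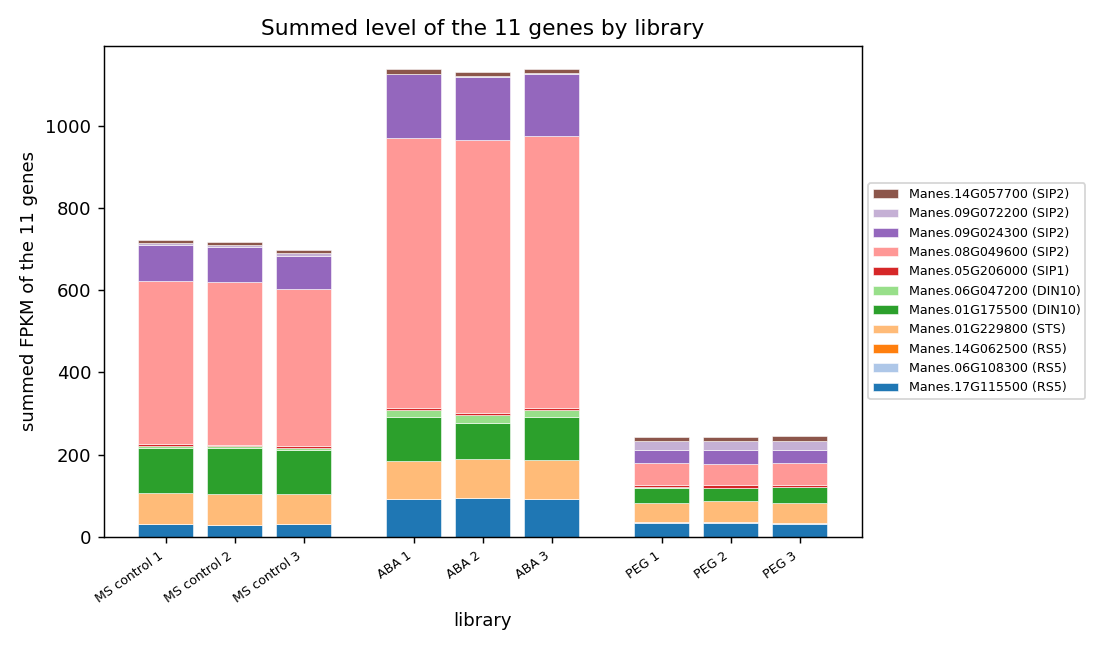
Summed FPKM of the 11 genes (vertical axis) in each of the 9 libraries (horizontal axis), with each bar split by gene. The PEG bars reach 242.7 to 243.9 FPKM, against 698.2 to 722.5 FPKM in the MS control, and most of the difference is in Manes.08G049600.

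Most of the members changed, as did most genes of these leaves. After ABA 6 of the 10 tested rose and 2 fell, against 32.9% and 33.4% of all genes tested, or 66.3% in either direction. After PEG 4 rose and 5 fell, against 35.6% and 35.1% of all genes, or 70.7% in either direction. Between PEG and ABA 2 were higher with PEG and 6 were lower, against 39.1% and 35.6% of all genes, or 74.7% in either direction. With 8 or 9 of 10 called, the shares are not far from this background and are not read as a result. The members were chosen with earlier results of these data known, which may favour genes with large changes. Changes of at least 2-fold made up a larger share of the members than of all genes, which is given as a description of 10 genes, with no test. After ABA 2 rose and 2 fell by this much, against 10.6% and 8.79% of all genes (19.4% in either direction). After PEG 2 rose and 4 fell, against 12.4% and 9.72% (22.1%), and between PEG and ABA 2 were higher and 6 lower, against 16.0% and 12.9% (28.9%). The median size of a change, whatever its sign, was 0.87 on the log2 scale after ABA, 1.62 after PEG and 2.08 between PEG and ABA, where all genes tested had 0.41, 0.45 and 0.54. FPKM ranges of the groups did not overlap in 9 of the members tested for ABA (70.4% of all genes), in 10 for PEG (74.7%) and in 10 between PEG and ABA (79.1%). Both treatments were compared with the same MS control libraries.

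**Figure D2:**
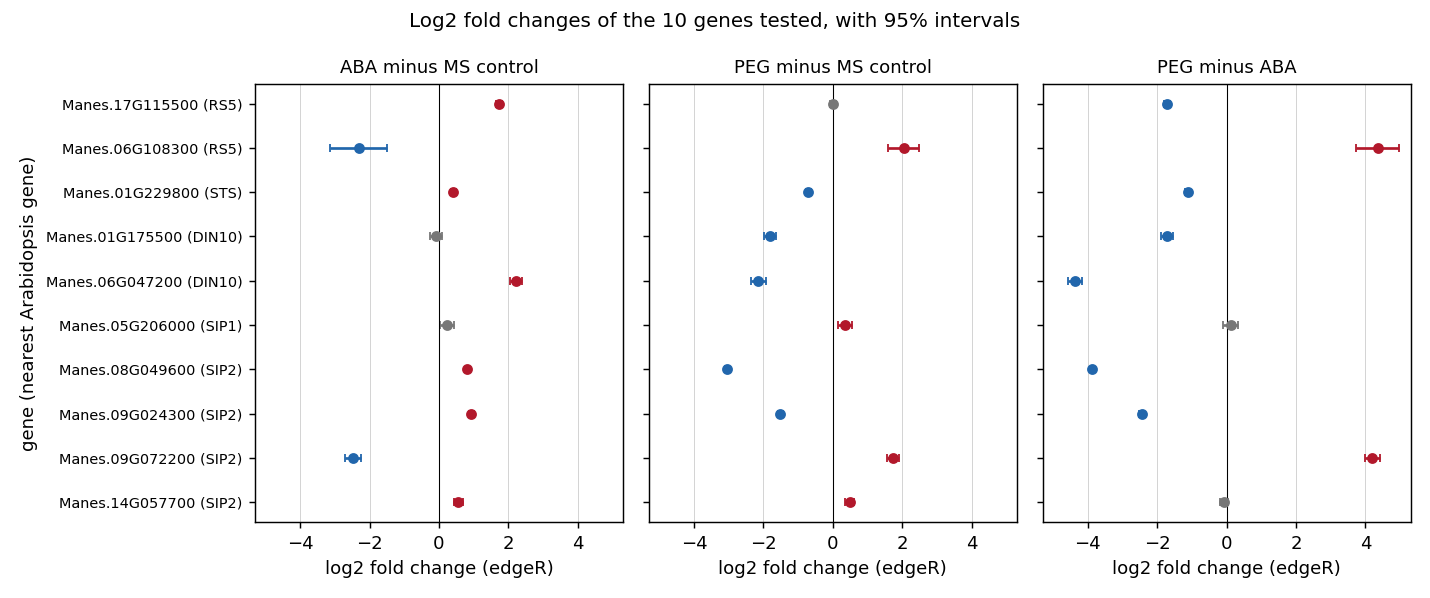
Log2 fold change from edgeR (horizontal axis) of the 10 genes tested (vertical axis, with the nearest Arabidopsis gene) in the 3 comparisons, with bars for the 95% interval. Red points rose, blue points fell and grey points did not pass the test, and values run from -4.36 to 4.36, both between PEG and ABA.

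Among the genes nearest to RS5, the raffinose synthase of stressed Arabidopsis leaves, Manes.17G115500 was the abundant copy and rose after ABA. Its libraries had 29.6, 28.7 and 29.6 FPKM in the MS control, 92.3, 93.7 and 91.9 FPKM after ABA, and 32.5, 33.8 and 30.1 FPKM after PEG. The ABA libraries lay close together and far above both other groups. After ABA the log2 fold change was 1.73 (SE 0.04, edgeR adjusted p = 1.44e-11), and between PEG and ABA it was -1.72 (edgeR adjusted p = 4.39e-12). After PEG the edgeR value was 0.00 (95% interval -0.09 to 0.09, adjusted p = 0.947). All PEG libraries were above the MS control in FPKM, by a margin near the shift of the median gene. The change after PEG was 0.14 (adjusted p = 0.0104) in edgeR with no scaling beyond library size and 0.13 (adjusted p = 0.0182) in limma on FPKM, in a range of adjusted p of 0.0104 to 0.987 over all settings.

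Manes.06G108300, also nearest to RS5, was scarce and was highest after PEG. It had 0.342, 0.611 and 0.555 FPKM in the MS control, 0.117, 0.0828 and 0.0871 FPKM after ABA, and 2.02, 2.56 and 2.35 FPKM after PEG. The 3 groups did not overlap. These levels rest on 11, 21 and 21 reads in the MS control, on 4, 3 and 3 reads after ABA, and on 79, 101 and 86 reads after PEG. The gene fell after ABA, with a log2 fold change of -2.31 (SE 0.38, 95% interval -3.13 to -1.49, edgeR adjusted p = 0.000196). It rose after PEG by 2.05 (SE 0.20, 95% interval 1.60 to 2.49, edgeR adjusted p = 2.71e-06), and PEG exceeded ABA by 4.36 (SE 0.28, edgeR adjusted p = 4.36e-08). In limma on log2(FPKM + 0.1), where the added 0.1 is about as large as the level after ABA, the same values were -1.60, 2.02 and 3.62. Within a library, the abundant copy had 62.2 ± 21.2 times the FPKM of this gene in the MS control, 992.6 ± 178.5 times after ABA and 14.1 ± 1.79 times after PEG.

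The third gene nearest to RS5, Manes.14G062500, was near the detection limit. It had 0.0309, 0.0578 and 0.0525 FPKM in the MS control, 0.0869, 0.0274 and 0 FPKM after ABA, and 0.102, 0.0754 and 0.0814 FPKM after PEG. The PEG libraries lay above the MS control, while the ABA libraries overlapped both other groups. These values rest on 5 reads in all in the MS control, 4 after ABA and 10 after PEG, and the gene was not tested. The end of the gene overlaps Manes.14G062600, which encodes a G-patch protein and had group means of 5.72 to 7.94 FPKM, and the strand setting of the counts was not given, so these few reads may belong to either.

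Manes.01G229800, nearest to the stachyose synthase STS, was among the abundant members. Its libraries had 75.6, 74.9 and 72.8 FPKM in the MS control, 92.5, 95.9 and 95.8 FPKM after ABA, and 48.1, 51.4 and 50.1 FPKM after PEG. Each ABA library lay above and each PEG library below the MS control. The rise after ABA was 0.41 on the log2 scale (SE 0.03, edgeR adjusted p = 4.27e-07) and the change after PEG was -0.71 (SE 0.03, edgeR adjusted p = 2.87e-09). PEG minus ABA was -1.12 (SE 0.03, edgeR adjusted p = 2.54e-11). Although the gene fell, its share of the summed FPKM was 20.5% ± 0.683 after PEG against 10.4% ± 0.0212 in the MS control, since the sum was lower.

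The genes nearest to DIN10 both fell after PEG and differed in level and in the test after ABA. Manes.01G175500 had 111, 112 and 109 FPKM in the MS control, the second highest level of the family there. It had 106, 87.9 and 105 FPKM after ABA and 36.8, 30 and 37.2 FPKM after PEG. Replicate 2 was the lowest library of both treated groups, and the PEG libraries lay far below the others. After PEG the log2 fold change was -1.81 (SE 0.08, edgeR adjusted p = 2.87e-09), and PEG minus ABA was -1.72 (edgeR adjusted p = 2.58e-09). After ABA it was -0.09 (95% interval -0.27 to 0.09, edgeR adjusted p = 0.334), and the FPKM ranges did not overlap. The counts and FPKM of this gene imply a transcript of 4348 bases, longer than the 3718 bases between its coordinates, so its place among the levels is less sure than its changes.

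Manes.06G047200, the scarcer gene nearest to DIN10, rose after ABA and fell after PEG. It had 3.79, 4.06 and 4.21 FPKM in the MS control, 18.3, 18.6 and 16.7 FPKM after ABA, and 1.13, 0.948 and 0.907 FPKM after PEG. No groups overlapped. The rise after ABA, 2.22 on the log2 scale (SE 0.08, edgeR adjusted p = 3.27e-10), was the largest of the members tested. After PEG the value was -2.14 (SE 0.10, edgeR adjusted p = 3.12e-09), and PEG minus ABA was -4.36 (SE 0.09, edgeR adjusted p = 1.38e-12). Manes.01G175500 had 27.6 ± 1.73 times the FPKM of this gene in the MS control, 5.58 ± 0.783 times after ABA and 35 ± 5.17 times after PEG.

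Manes.05G206000, the gene nearest to SIP1, had low levels and small changes. It had 4.45, 4.21 and 4.04 FPKM in the MS control, 4.74, 4.42 and 5.09 FPKM after ABA, and 6.23, 6.19 and 5.28 FPKM after PEG. The MS control and ABA libraries overlapped, and the PEG libraries lay above both. The gene rose after PEG by 0.35 on the log2 scale (SE 0.09, edgeR adjusted p = 0.006). After ABA the value was 0.23 (95% interval 0.02 to 0.44, edgeR adjusted p = 0.0531), which did not pass. It passed in edgeR with DESeq2 size factors (0.25, adjusted p = 0.0368), without ABA replicate 2 (0.28, adjusted p = 0.0388) and without PEG replicate 3 (0.23, adjusted p = 0.0383), in a range of adjusted p of 0.0368 to 0.17 over all settings. PEG minus ABA was 0.12 (95% interval -0.09 to 0.32, edgeR adjusted p = 0.272).

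**Figure D3:**
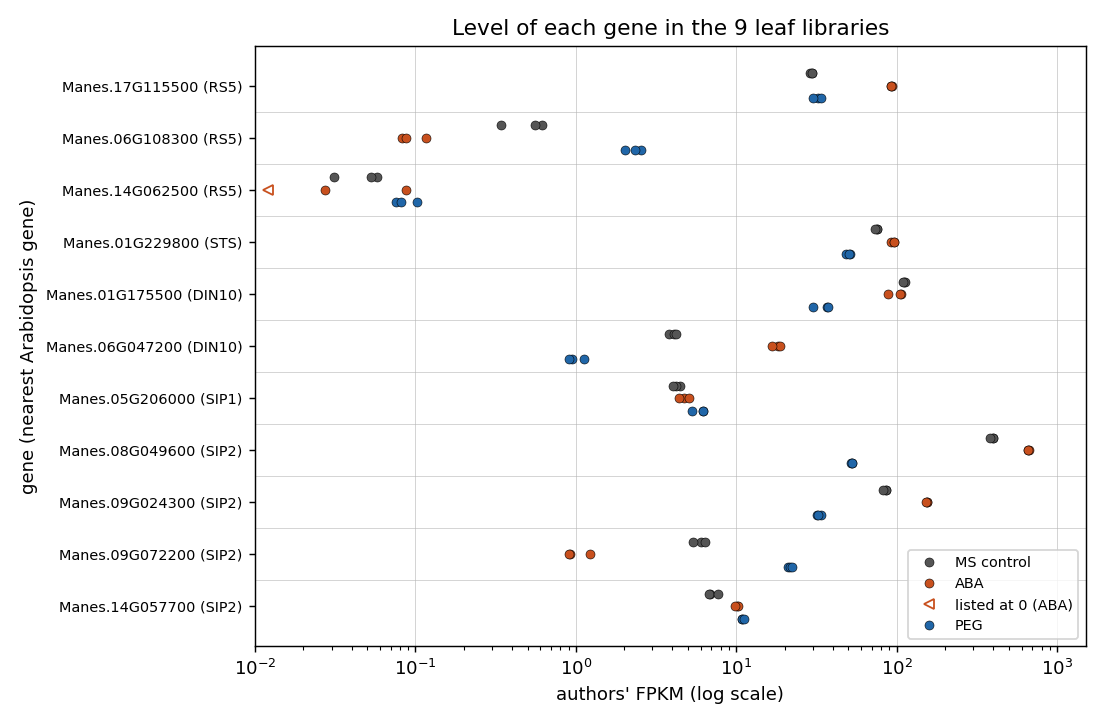
FPKM on a log scale (horizontal axis) of each of the 11 genes (vertical axis, with the nearest Arabidopsis gene) in the 9 libraries, 1 point per library and colours by group. The triangle marks the ABA library in which Manes.14G062500 is listed at 0, and Manes.08G049600 has the highest mean in every group, from 51.7 FPKM in a PEG library to 666 FPKM in an ABA library.

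Manes.08G049600, nearest to the alkaline alpha-galactosidase SIP2, was the most abundant member in every group and had the largest fall of a member after PEG. Its libraries had 399, 396 and 382 FPKM in the MS control, 659, 666 and 662 FPKM after ABA, and 52.3, 51.7 and 52.4 FPKM after PEG. The groups stood far apart. It rose after ABA by 0.82 on the log2 scale (SE 0.02, edgeR adjusted p = 1.04e-11), and after PEG the value was -3.05 (SE 0.02, edgeR adjusted p = 5.28e-16). PEG minus ABA was -3.86 (SE 0.02, edgeR adjusted p = 5.54e-17). By mean FPKM among all genes of the table, it ranked 88 in the MS control, 42 after ABA and 2403 after PEG.

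Manes.09G024300, the next gene nearest to SIP2, also rose after ABA and fell after PEG. It had 85.6, 85.3 and 81.7 FPKM in the MS control, 155, 154 and 152 FPKM after ABA, and 31.6, 33.6 and 32.3 FPKM after PEG. No groups overlapped. The values were 0.93 after ABA (SE 0.03, edgeR adjusted p = 2.43e-10), -1.51 after PEG (SE 0.03, edgeR adjusted p = 4.49e-12) and -2.44 for PEG minus ABA (SE 0.03, edgeR adjusted p = 3.84e-14), all on the log2 scale. Manes.08G049600 had 4.66 ± 0.0178 times the FPKM of this gene in the MS control, 4.31 ± 0.0525 times after ABA and 1.6 ± 0.0599 times after PEG. An undescribed gene that overlaps its end, Manes.09G024400, had no reads.

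Manes.09G072200 has the same nearest Arabidopsis gene and moved the other way. It had 6, 5.39 and 6.35 FPKM in the MS control, 1.23, 0.919 and 0.907 FPKM after ABA, and 21.0, 21.5 and 22.2 FPKM after PEG. The ABA libraries were lowest and the PEG libraries highest, without overlap. The gene fell after ABA, with a log2 fold change of -2.47 (SE 0.10, edgeR adjusted p = 1.81e-09), and rose after PEG by 1.73 (SE 0.08, edgeR adjusted p = 3.2e-09). PEG exceeded ABA by 4.20 (SE 0.10, edgeR adjusted p = 3.95e-12). Manes.08G049600 had 66.8 ± 6.64 times the FPKM of this copy in the MS control, 662.7 ± 111.6 times after ABA and 2.42 ± 0.0602 times after PEG. The share of Manes.09G072200 in the summed FPKM was 0.83% ± 0.0791, 0.0897% ± 0.0162 and 8.86% ± 0.207 in the same order.

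The fourth gene nearest to SIP2, Manes.14G057700, rose after both treatments by less than 2-fold. It had 6.89, 6.78 and 7.72 FPKM in the MS control, 10.1, 10.2 and 9.86 FPKM after ABA, and 10.9, 10.9 and 11.1 FPKM after PEG. Every treated library lay above the MS control. The log2 fold change was 0.56 after ABA (SE 0.06, edgeR adjusted p = 5.33e-06) and 0.49 after PEG (SE 0.06, edgeR adjusted p = 1.35e-05). PEG minus ABA was -0.07 (95% interval -0.20 to 0.05, edgeR adjusted p = 0.271), and its sign turned with no scaling beyond library size (0.125) and in limma (0.124). The sources used here do not say how reads that match several copies were counted, so part of a copy's value may belong to another.

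The order of the levels differed between the groups. In the MS control Manes.08G049600 was first at 392.6 ± 9.07 FPKM. Manes.01G175500 followed at 110.6 ± 1.49 FPKM, then Manes.09G024300 at 84.2 ± 2.20 FPKM, Manes.01G229800 at 74.4 ± 1.44 FPKM and Manes.17G115500 at 29.3 ± 0.531 FPKM. Manes.05G206000 and Manes.06G047200, next to each other lower down, did not differ beyond their spread. After ABA Manes.09G024300 came second at 153.8 ± 1.52 FPKM. Behind it Manes.01G175500 at 99.4 ± 9.93 FPKM, Manes.01G229800 at 94.7 ± 1.92 FPKM and Manes.17G115500 at 92.6 ± 0.948 FPKM overlapped with their neighbours in the order. After PEG Manes.08G049600 at 52.1 ± 0.340 FPKM was just above Manes.01G229800 at 49.9 ± 1.68 FPKM, without overlap. Manes.01G175500 at 34.7 ± 4.04 FPKM, Manes.09G024300 at 32.5 ± 1.04 FPKM and Manes.17G115500 at 32.2 ± 1.89 FPKM again overlapped with their neighbours. The genes nearest to SIP2 together had 16.4 ± 0.534 times the FPKM of those nearest to RS5 in the MS control, 8.92 ± 0.053 times after ABA and 3.4 ± 0.203 times after PEG.

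The steps that supply raffinose synthase were read from lists of description terms, beside a median change over all genes tested of 0.00 after ABA and 0.01 after PEG. Of all genes tested 32.9% rose and 33.4% fell after ABA (66.3% in either direction), and 35.6% rose and 35.1% fell after PEG (70.7%). Counts near these shares, here and for the lists that follow, are not read as a result about a list. Galactinol synthases, which make the galactose donor, had a median of 1.49 after ABA and -0.91 after PEG. Of 8 tested 7 rose and 1 fell after ABA, and 2 rose and 5 fell after PEG. The most abundant, Manes.03G208800, nearest to galactinol synthase 1, had 319 ± 7.31 FPKM in the MS control, 373.1 ± 5 FPKM after ABA and 249.4 ± 5.24 FPKM after PEG. Manes.13G029000, nearest to galactinol synthase 4, was the gene that fell after ABA, from 201.4 ± 7.13 FPKM to 86.7 ± 1.71 FPKM, and had 249.1 ± 2.38 FPKM after PEG. Manes.08G109300, nearest to galactinol synthase 2 and named here after its values were seen, had 21.4 ± 1.29 FPKM in the MS control, 226.3 ± 3.49 FPKM after ABA and 3.77 ± 0.913 FPKM after PEG. Its log2 fold changes were 3.46 and -2.63 (edgeR adjusted p = 6.02e-11 and 1.8e-09). The myo-inositol phosphate synthases, which open the path to myo-inositol, both rose after ABA. Manes.13G091100 went from 13.7 ± 0.802 FPKM to 38.9 ± 0.187 FPKM (edgeR adjusted p = 4.25e-10) and had a log2 fold change of 0.01 after PEG (edgeR adjusted p = 0.869). Manes.12G137800 rose by 0.84 after ABA and by 1.42 after PEG.

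The list of 12 UDP-sugar epimerases held 4 genes for UDP-glucose and UDP-galactose, which supply UDP-galactose, and 8 for UDP-glucuronate, which act on another sugar. This split was made after the values were seen. All 4 of the former rose after ABA, none rose and 3 fell after PEG, and their sum was 113.5 to 114.3 FPKM in the MS control, 288.1 to 300.5 FPKM after ABA and 83.7 to 86.4 FPKM after PEG. Manes.02G009300, the highest of the 4 in each group, had 62.1 ± 2.61 FPKM in the MS control, 221.1 ± 2.39 FPKM after ABA and 42.1 ± 1.18 FPKM after PEG. Of the 8 others 0 rose and 4 fell after ABA, and 0 rose and 3 fell after PEG. Manes.14G147600, of this kind, fell by 1.07 on the log2 scale after ABA and by 1.35 after PEG.

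Of 11 genes described as inositol monophosphatases, 0 rose and 5 fell after ABA, and 6 rose and 1 fell after PEG. The highest by mean FPKM over all 9 libraries, Manes.02G178700 and Manes.18G091300, are nearest to an Arabidopsis gene known as a cytosolic fructose-bisphosphatase. Both are counted among the falls after ABA and the rises after PEG. The description names a protein family, so the counts do not describe the step to myo-inositol alone. Manes.18G091300 had 23.6 ± 1.11 FPKM in the MS control, 6.41 ± 0.194 FPKM after ABA and 102.6 ± 4.05 FPKM after PEG, so that its place rests on the PEG libraries, and Manes.02G178700 fell by 0.68 after ABA and rose by 0.72 after PEG on the log2 scale. Alpha-galactosidases outside the family also remove galactose from such sugars, and were listed by this name or by melibiase. Manes.07G140100 and Manes.13G022100 are described only as melibiase family proteins, so the list need not describe this step alone. The list summed to 330.5 to 339.8 FPKM in the MS control, 368.3 to 389.5 FPKM after ABA and 300.7 to 304.5 FPKM after PEG. Of 5 tested 3 rose and 0 fell after ABA, and 1 rose and 3 fell after PEG. Manes.04G160300 had log2 fold changes of 0.14 after ABA and -0.22 after PEG, and Manes.07G140100 of 0.44 and -0.51. Of the 2 galactokinases, which recycle free galactose, Manes.03G206800 fell by 0.22 after ABA and Manes.15G001800 fell by 0.15 after PEG. The latter is about the size of the median change of all genes after PEG without TMM scaling, 0.14.

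Sucrose, the acceptor of the first galactose, is made through sucrose-phosphate synthase. Of 6 such genes 3 rose and 2 fell after each treatment. Manes.14G117000 had log2 fold changes of 0.10 after ABA and -0.10 after PEG, and Manes.02G203000 of -0.74 and 1.51. In FPKM, which does not carry the TMM scaling, Manes.14G117000 had 29.3 ± 0.75 in the MS control and 30 ± 0.605 after PEG. Of 7 sucrose synthases, which split sucrose in most tissues, 5 rose and 1 fell after ABA, and 3 rose and 3 fell after PEG. Manes.01G221900, the most abundant, had 350.9 ± 6.16 FPKM in the MS control, 567.2 ± 5.5 FPKM after ABA and 253 ± 0.483 FPKM after PEG, and Manes.02G081500 had log2 fold changes of 1.01 and -0.55. Of 14 genes tested that were found by invertase terms, 4 rose and 5 fell after ABA, and 4 rose and 7 fell after PEG. Among them, Manes.13G111500, Manes.12G114200 and Manes.05G105200 are described as arabinanase/levansucrase/invertase, a name that covers other enzymes too. Manes.03G208400 rose by 0.40 after ABA and fell by 0.85 after PEG, and Manes.04G006900 fell by 0.47 and by 0.10. In FPKM Manes.04G006900 was not lower after PEG, with 40.5 ± 0.255 in the MS control and 41.5 ± 0.251 after PEG. The 2 myo-inositol oxygenases tested, which draw myo-inositol off towards cell wall sugars, rose after ABA and fell after PEG, with log2 fold changes of 0.74 and -2.52 for Manes.04G136300 and of 0.82 and -0.53 for Manes.16G106200. Both inositol transporters tested rose after ABA, Manes.11G117700 by 0.61 and Manes.15G123900 by 0.42, and after PEG their changes were -0.18 and 0.21.

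**Figure D4:**
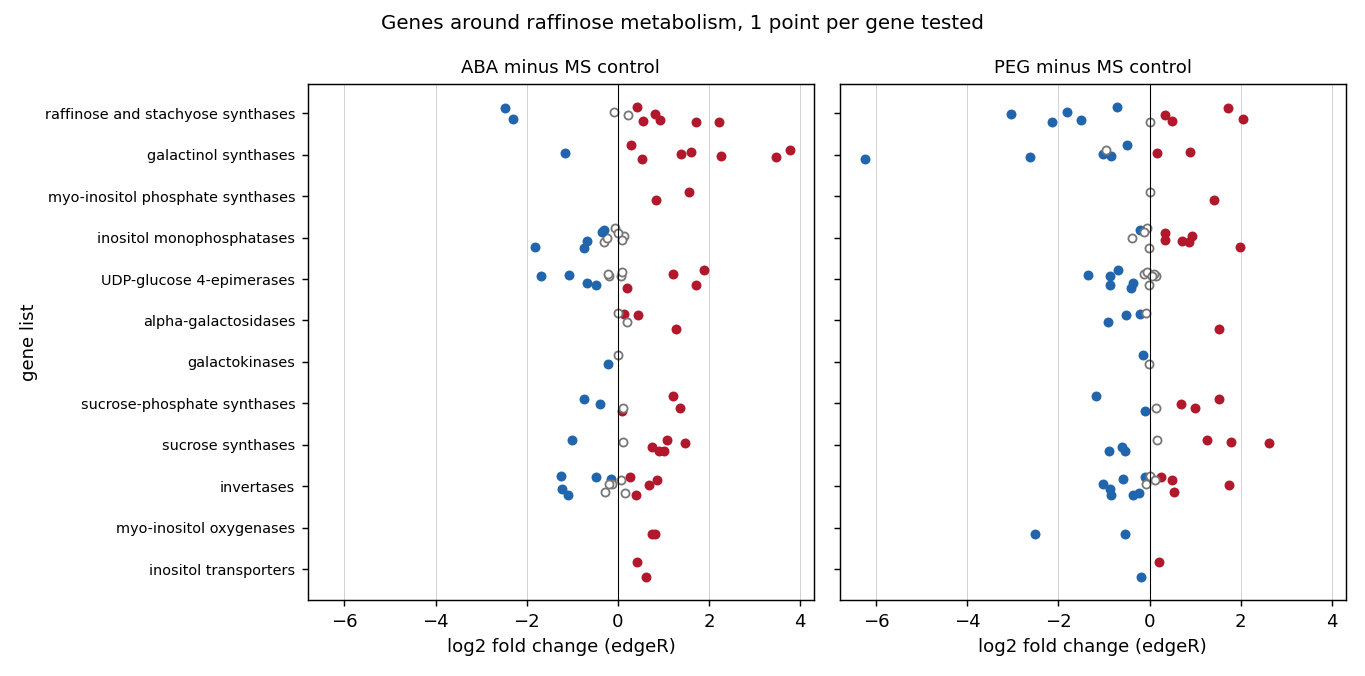
Log2 fold change from edgeR after ABA (left) and after PEG (right), both against the MS control, for each gene tested (1 point) of the raffinose and stachyose synthases and of the 11 other lists. Red points rose, blue points fell and open points did not pass the test, and 7 of the 8 galactinol synthases rose after ABA.

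Likeness of level was measured by Pearson's r of log2(FPKM + 0.1) over the 9 libraries, among described genes that passed the filter and had a mean of at least 5 FPKM in 1 group. For Manes.06G108300, the 5 closest of 15391 genes were a photosystem I subunit gene, Manes.13G042400 (r = 0.9974), and genes for an R3H protein, Manes.08G062600 (r = 0.9973), an F-box protein, Manes.01G214300 (r = 0.9959), a DUF1995 protein, Manes.17G008800 (r = 0.9957), and an oxidoreductase, Manes.07G025600 (r = 0.9952). They share the order PEG, MS control, ABA from high to low. Manes.13G042400 had 446.4 ± 47.2 FPKM in the MS control, 231.4 ± 5.76 FPKM after ABA and 1024 ± 7.17 FPKM after PEG. For Manes.08G049600, the 5 closest of 15390 genes encode a lipid transfer protein, Manes.08G171800 (r = 0.9997), a phloem protein, Manes.10G128700 (r = 0.9996), a multidrug resistance-associated protein, Manes.05G063200 (r = 0.9995), an adenine nucleotide hydrolase-like protein, Manes.05G062900 (r = 0.9994), and a kelch repeat protein, Manes.01G187600 (r = 0.9994). Manes.10G128700 had 48.4 ± 1.35 FPKM in the MS control, 78.2 ± 2.73 FPKM after ABA and 8.96 ± 0.296 FPKM after PEG. With 3 groups of closely alike libraries, such r values describe a shared order and relative spacing of group levels, whatever the size of the changes. The R3H gene Manes.08G062600 had only 289.2 ± 6.04 FPKM in the MS control, 263.8 ± 0.705 FPKM after ABA and 323 ± 6.04 FPKM after PEG. For Manes.06G108300 the r values also depend on the added 0.1, which is about as large as its level after ABA.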

How the data were processed

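RNA-seq of mature leaves gave 9 libraries, 3 each for the MS control, ABA and PEG, with groups and replicate numbers from the sample titles and table columns assigned by the library names in the sample descriptions. The authors deposited raw read counts and FPKM for every gene. HISAT2 2.0.4 and StringTie 1.3.0 appear in the submitters' processing notes, with no role given. The study worked with the cassava genome v6.1, whose gene IDs the table carries. How reads were counted, and whether by strand, was not given in the sources used here. In 28934 of 28934 genes compared, counts and FPKM imply 1 transcript length per gene within 0.1%.

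The read counts were tested in R 4.3.3 with edgeR 4.0.16 (filterByExpr, TMM, quasi-likelihood F test, 1 mean per group), Benjamini-Hochberg adjusted over 23984 genes. The study's test of group means on FPKM was replaced by this count model. The common biological coefficient of variation was 0.103. The script was tested on simulated data. A chi-square comparison of replicate libraries had medians of 0.663 to 0.836 against 0.455 for pure sampling. Technical spread between libraries would also exceed pure sampling, so this does not show that the libraries came from separate plants. All libraries were kept as separate samples.

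The members and the gene lists were chosen with earlier results of these data known. Members with a mean of at least 1 FPKM in 1 group (10 of 11) are given by library. The 2 genes of highest mean FPKM are named from each pathway list, and the 5 most alike genes are named for 2 members. From the galactinol synthases Manes.08G109300 was named in addition, after its values were seen. Seed terms found 100 genes, 86 of them lipid-transfer proteins, so the list does not mark seed tissue. Of its 43 tested, 16 rose and 19 fell after ABA and 16 rose and 22 fell after PEG. Of the 14 genes other than lipid-transfer proteins 8 were tested. Among these 8, 2 rose and 5 fell after ABA, and 0 rose and 6 fell after PEG. The 14 summed to 255.3 to 267.7 FPKM in the MS control, 190 to 199.7 FPKM after ABA and 91 to 97.8 FPKM after PEG. Of 19 genes tested that are named for senescence, 4 rose and 9 fell after ABA, and 0 rose and 16 fell after PEG. Shares of all genes called are given with the results. Alternatives were DESeq2 size factors or no scaling, other filters on low counts, DESeq2 1.42.0, limma 3.58.1 on log2(FPKM + 0.1), a replicate block, only the groups compared, each library left out, a fold of at least 2 and, for sums, CPM after TMM. Protein and promoter sequences were not analysed here.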

Additional observations from a re-analysis of the deposited data

How the results depend on the processing

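Each of 30 log2 fold changes (10 genes, 3 comparisons) was refitted under 17 settings, and 495 of the 510 values kept their direction and their side of the threshold. The number of members that passed stayed within 1.5 times the first count, except that 4 passed after ABA with a fold of at least 2. Values that changed sign were those of Manes.17G115500 after PEG, at -0.002 with DESeq2 size factors, -0.002 with no filter on low counts, -0.001 with the DESeq2 Wald test and -0.036 to 0.049 with single libraries left out (negative without MS control replicate 2, PEG replicate 1 or PEG replicate 2), and of Manes.14G057700 between PEG and ABA, at 0.125 with no scaling and 0.124 with limma. Manes.05G206000 passed between PEG and ABA with no scaling (0.31, edgeR adjusted p = 0.00945) and with limma (0.30, adjusted p = 0.0167), in a range of adjusted p of 0.00945 to 0.584. Neither setting carries the TMM scaling. The cause was not tested. With no scaling, higher genes made up 61.0% of all calls after PEG against 50.4% with TMM, and 65.3% between PEG and ABA against 52.4%. CPM after TMM, summed over the 10 genes tested, was 2707 for the MS control, 4411 for ABA and 762 for PEG, that is 1.63 times the MS control and 3.55-fold lower. With single libraries left out the summed FPKM was 708 to 720.3 for the MS control, 1135 to 1139 for ABA and 242.7 to 243.3 for PEG, and 8 to 9 members passed after ABA, 9 after PEG and 8 between them.

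Deviations of same-numbered libraries from their group means correlated at -0.0401 to 0.062. Libraries with different numbers were not compared in this way, so whether replicate numbers pair the libraries weakly was not settled. With the replicate number as a block, 8 members passed after ABA, 9 after PEG and 8 between them, and no call changed. Depth limits Manes.14G062500, with 0 to 4 reads per library, and Manes.06G108300 after ABA, with 3 to 4.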
